A study of Mus musculus with 6 samples.

Results

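Glycolysis was followed through 10 genes of its enzymes in 2H11 cells, chosen by gene name: Hk1, Hk2, Gpi1, Pfkl, Pfkm, Pfkp, Aldoa, Tpi1, Pkm and Ldha. All 10 were among the 11754 genes of the deposited gene table, and 27 of the 22148 listed transcripts belonged to them. 2H11 is an established mouse line of strain C3H/HeJ, which the labels call endothelial and assign to lymph node and vascular epithelium. All cells were starved. The 3 BMP4 samples were kept for 48 h with BMP4, a secreted bone morphogenetic protein, and the 3 untreated samples without it. No allele or transgene is named in the labels, and they do not say where the replicates come from; if these are not separate cultures, the p-values cover technical spread alone. The question was which steps and which isozymes of glycolysis differ in RNA level between the groups.

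Glycolysis splits glucose into pyruvate in the cytosol. Hexokinases trap glucose as its phosphate, phosphofructokinase commits the sugar to the pathway, and aldolase and triose phosphate isomerase yield the triose that the later steps oxidize. Pyruvate kinase makes ATP in the last step, and lactate dehydrogenase turns pyruvate into lactate while restoring NAD+. Several steps have isozymes from separate genes or from alternative splicing, and endothelial cells are known for drawing much of their ATP from glycolysis.

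Values are FPKM, fragments per kilobase scaled to the library. Gene FPKM can lie below that of the gene's main transcript, by a factor that differs between genes. In BMP4 replicate 1 Aldoa had 83.3 FPKM as a gene and 182 for Aldoa-001, whereas Pfkm had 55.2 and 56.7 for Pfkm-201. Levels and shares across genes are therefore approximate. The sum of gene FPKM over all genes was 252329 to 264273 in the BMP4 samples and 256997 to 273562 in the untreated samples, and the number of reads behind a value is unknown. Untreated replicate 1 had the highest sum and also the highest value of 6 of the 10 genes (Hk2, Gpi1, Pfkl, Tpi1, Pkm and Ldha). Of 13 endothelial markers, 8 were not analysed here, Pecam1, Cdh5 and Kdr among them, and the other 5 summed to 55.8 to 58.5 FPKM in BMP4 samples and 86.6 to 93.1 FPKM in untreated samples. Cd34 carried most of that difference, at 24.5 FPKM with BMP4 and 52.2 FPKM without on average, whereas Flt1 was higher with BMP4, at 1.96 FPKM, against 0.924 FPKM without it. All 6 fibroblast markers were listed and summed to 1166 to 1179 FPKM in BMP4 samples and 2521 to 2587 FPKM in untreated samples; 5 of them were lower with BMP4 and Pdgfra was higher, at 25.1 FPKM, against 18.1 FPKM without it. Of 7 muscle markers only Des was analysed here, at 3.20 to 3.80 FPKM in BMP4 samples and 2.53 to 3.30 FPKM in untreated samples. The part of these cell type markers in the results was not tested.

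Among the 10 genes, the differences that passed the test lay at the phosphofructokinase and triose phosphate isomerase steps. Pfkp rose 1.66-fold with BMP4, while Pfkl fell by 15.4% and Tpi1 fell by 17.8% of their untreated means. With limma on log2(FPKM + 1), a moderated test fitted on 10932 genes with a mean of at least 1 FPKM and adjusted over all of them by Benjamini-Hochberg, 1 of the 10 genes was higher, 2 were lower and 7 did not pass an adjusted p of 0.05. Among all tested genes 27.9% passed, 13.6% higher and 14.3% lower, so a count of 3 of 10 lies near the background. The log2 fold change was negative for 8 of the 10, and for 50.2% of all tested genes. Its median was -0.09 for the 10, against -0.0013 over all tested genes. In these bulk samples fewer cells of a type and less RNA per cell cannot be told apart.

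**Figure D1:**
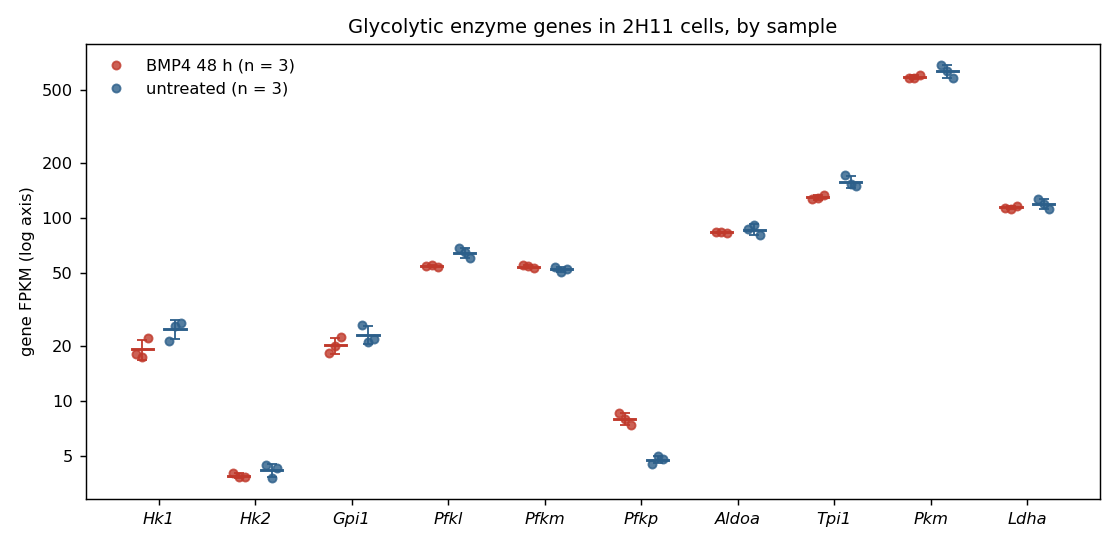
Gene FPKM (log axis) of the 10 enzyme genes, with BMP4 samples left and untreated samples right in each pair; points are samples, lines group means and bars the SD (n = 3 each). Pkm lies highest, Hk2 and Pfkp lie lowest, and the groups are clear of each other for Pfkl, Pfkp and Tpi1.

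Taken as gene FPKM, the levels covered a 149-fold range. Averaged over the 6 samples, Pkm was highest at 608 FPKM, the 24th gene of the table, and made up 53.2% to 54.8% of the summed FPKM of the 10 genes in each sample. Tpi1 at 143, Ldha at 116, Aldoa at 84.7, Pfkl at 59.7 and Pfkm at 53.3 FPKM followed. Hk1 at 21.9 and Gpi1 at 21.6 FPKM did not differ beyond their spread, and Pfkp at 6.40 and Hk2 at 4.07 FPKM closed the order. The 10 genes summed to 1071 ± 20.1 FPKM in BMP4 samples and 1167 ± 77.1 FPKM in untreated samples (SD, n = 3 each), and the groups overlapped.

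Phosphofructokinase is the committed step of glycolysis and works as a tetramer whose subunits come from Pfkl (first described in liver), Pfkm (muscle) and Pfkp (platelets). Pfkp (chromosome 13, 6579768 to 6648777, minus strand, GRCm38) had 8.61, 7.95 and 7.42 FPKM in the BMP4 samples, against 4.57, 5.02 and 4.84 FPKM in the untreated samples. All BMP4 samples lay above all untreated samples, and the lowest of them was still well clear of the highest untreated one. The log2 fold change of Pfkp was 0.63 (SE 0.07, limma adjusted p = 0.000745), and the call held under all 13 alternative settings, with adjusted p between 0.000699 and 0.00763. By GENCODE M21 lengths the 2 listed Pfkp transcripts, of 13 annotated, came to 33.9% to 51.0% of Pfkp gene FPKM in the 6 samples. The other Pfkp transcripts were not analysed here, and this length-based measure does not show what they held.

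Pfkl (chromosome 10, 77986947 to 78010083, minus strand) had 54.7, 55.3 and 54.1 FPKM with BMP4, against 68.4, 65.3 and 60.3 FPKM without it. The BMP4 samples sat close together below all untreated samples, which spread more widely. The log2 fold change of Pfkl was -0.24 (SE 0.05, limma adjusted p = 0.0173). This call was lost without BMP4 replicate 1, 2 or 3 (adjusted p = 0.0625, 0.0544 and 0.0505) or without untreated replicate 2 (0.0618). Pfkm (chromosome 15, 98092589 to 98132447, plus strand) had 55.2, 54.4 and 53.0 FPKM with BMP4, against 54.0, 50.3 and 52.8 FPKM without it. These ranges overlapped, and the log2 fold change of 0.05 had a 95% interval from -0.06 to 0.15 (limma adjusted p = 0.458).

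The 3 phosphofructokinase genes together summed to 118, 118 and 115 FPKM in BMP4 samples, against 127, 121 and 118 FPKM in untreated samples, ranges that overlapped. The division of that sum among the isozymes was then set out per sample. Pfkl held 46.1%, 47.0% and 47.3% of the sum in BMP4 samples, against 53.9%, 54.1% and 51.1% in untreated samples. Pfkm held 46.6%, 46.2% and 46.3% in BMP4 samples, against 42.5%, 41.7% and 44.8% in untreated samples. Pfkp held 7.27%, 6.76% and 6.48% in BMP4 samples, against 3.60%, 4.16% and 4.10% in untreated samples. For each isozyme the groups did not overlap. By gene FPKM, Pfkl and Pfkm were near parity with BMP4, whereas Pfkl led Pfkm in every untreated sample.

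The difference in share was -6.24 percentage points for Pfkl, 3.35 for Pfkm and 2.88 for Pfkp. Each gave p = 0.1 in a two-sided exact permutation test, the smallest value that 3 samples against 3 allow, and an adjusted p of 0.175 over the 7 isozyme shares examined, so this test cannot bring a share under 0.05 with these samples. The 3 shares add to 100% and are not independent. Pfkl FPKM was 6.86 ± 0.478 times Pfkp FPKM in BMP4 samples and 13.5 ± 1.31 times in untreated samples (SD, n = 3 each). Formed from summed transcript FPKM in place of gene FPKM, the Pfkp share was 9.70%, 7.36% and 7.34% in BMP4 samples and 3.58%, 6.61% and 6.42% in untreated samples, again without overlap but with BMP4 and untreated samples closer together. On that measure Pfkl held 48.0%, 50.1% and 50.1% in BMP4 samples and Pfkm 42.3%, 42.5% and 42.6%. Pfkl then led Pfkm in every sample, and the near parity by gene FPKM was absent.

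**Figure D2:**
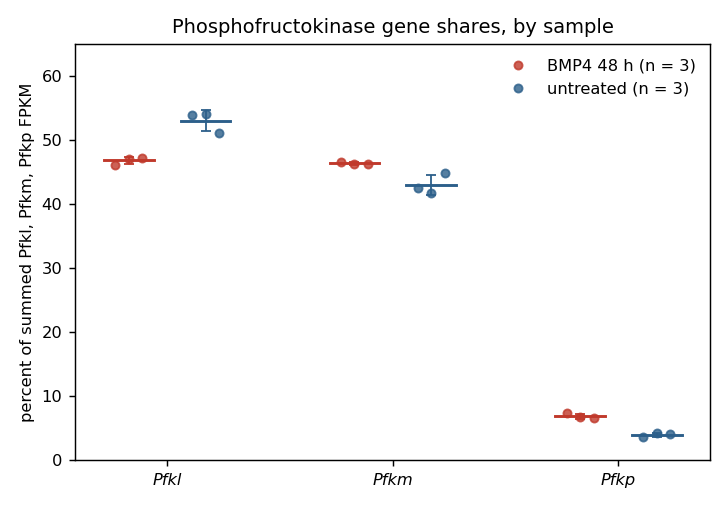
Percent of the summed FPKM of Pfkl, Pfkm and Pfkp held by each gene, with BMP4 samples left and untreated samples right; points are samples, lines means and bars the SD (n = 3 each). By gene FPKM, Pfkl and Pfkm both sit near 46% to 47% with BMP4, while in untreated samples Pfkl is at 51.1% to 54.1% and Pfkm at 41.7% to 44.8%.

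Promoters of the 3 isozyme genes are shown because their RNA levels parted. Each is a RefSeq sequence on GRCm38.p6 from 250 bases before to 50 after a gene start, of which all 10 genes had at least 1; for Pfkm, which has several, the promoter of the listed transcript is given. Capitals mark matches, on either strand, to ACGTG or GCGTG (cores bound by hypoxia-inducible factors), CACGTG (an E-box, which contains ACGTG on both strands) or GGCGCC (bound by BMP-responsive SMADs).
Pfkp chr13:6648722-6649021 minus strand: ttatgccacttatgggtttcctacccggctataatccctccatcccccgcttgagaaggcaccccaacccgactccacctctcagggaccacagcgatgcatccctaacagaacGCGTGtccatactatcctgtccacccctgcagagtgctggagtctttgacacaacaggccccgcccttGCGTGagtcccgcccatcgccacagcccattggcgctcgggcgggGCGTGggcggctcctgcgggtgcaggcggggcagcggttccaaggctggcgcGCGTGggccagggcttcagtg
Pfkl chr10:78009758-78010057 minus strand: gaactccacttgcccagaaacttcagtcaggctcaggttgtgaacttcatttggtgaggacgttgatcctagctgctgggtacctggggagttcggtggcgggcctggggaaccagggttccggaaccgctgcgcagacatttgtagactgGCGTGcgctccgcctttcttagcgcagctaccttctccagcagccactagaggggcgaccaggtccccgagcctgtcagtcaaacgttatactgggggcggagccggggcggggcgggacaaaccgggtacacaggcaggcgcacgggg
Pfkm chr15:98108221-98108520 plus strand: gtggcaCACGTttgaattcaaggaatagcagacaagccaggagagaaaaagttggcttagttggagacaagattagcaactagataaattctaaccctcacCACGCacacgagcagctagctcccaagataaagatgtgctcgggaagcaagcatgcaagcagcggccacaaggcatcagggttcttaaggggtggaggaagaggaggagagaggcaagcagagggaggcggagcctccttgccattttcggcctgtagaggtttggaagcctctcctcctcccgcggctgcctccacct
The Pfkp window held 4 GCGTG matches, the Pfkl window 1, and the Pfkm window 1 besides 1 ACGTG match, while CACGTG and GGCGCC were in none of them. Of all 32851 promoters of this length, 32.4% held GCGTG, 1.23% held it at least 4 times, 19.6% held ACGTG, 7.15% CACGTG and 11.9% GGCGCC. Among the other main enzyme genes, 1 window of Ldha held 5 ACGTG and 2 GCGTG matches, and 1 window of Hk1 held 2 ACGTG and 3 GCGTG. Neither Ldha nor Hk1 passed. The windows of Hk2, Gpi1, Aldoa, Tpi1 and Pkm held no GCGTG. These matches describe the letters only.

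Upstream of that step, hexokinase 1 and hexokinase 2 phosphorylate glucose and can bind the outer mitochondrial membrane. Hk1 had 18.1, 17.5 and 22.0 FPKM with BMP4, against 21.4, 25.9 and 26.8 FPKM without it. BMP4 replicate 3 lay above untreated replicate 1, the only crossing. The log2 fold change of Hk1 was -0.35 (SE 0.11, limma adjusted p = 0.0573), just outside the threshold. It passed without BMP4 replicate 3 (0.0255) or without untreated replicate 1 (0.0228). The main listed transcript, Hk1-014, had a log2 fold change of -0.23 and did not pass (limma adjusted p = 0.402). Untreated replicate 2 also had 16.7 FPKM of Hk1-013, which was at 0 in every other sample. Hk2, the isozyme that insulin and hypoxia induce in many tissues, had 4.08, 3.86 and 3.86 FPKM with BMP4, against 4.48, 3.84 and 4.30 FPKM without it, and its groups overlapped. Its log2 fold change of -0.08 had a 95% interval from -0.24 to 0.09. By gene FPKM Hk2 made up 17.1% ± 1.92 of the pair in BMP4 samples and 14.7% ± 2.34 in untreated samples (SD, n = 3 each). The groups overlapped (exact permutation p = 0.2, adjusted p = 0.233 over the 7 shares). By transcript FPKM the pair stood further apart. On average Hk2-001 had 4.24 and Hk1-014 38.1 FPKM in BMP4 samples, against 4.53 and 45.1 FPKM in untreated samples.

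Gpi1 encodes glucose-6-phosphate isomerase, which turns glucose 6-phosphate into fructose 6-phosphate. At the gene level Gpi1 (chromosome 7, 34201330 to 34230336) had 18.3, 19.9 and 22.4 FPKM with BMP4, against 26.2, 21.1 and 22.0 FPKM without it, with overlap and a limma adjusted p of 0.216. Its listed protein-coding transcript, Gpi1-001, had 31.0, 28.2 and 32.4 FPKM with BMP4, against 42.8, 39.9 and 38.9 FPKM without it. On the transcript level all BMP4 samples thus lay below all untreated samples, and the transcript fell by 0.40 on the log2 scale (SE 0.07, limma adjusted p = 0.0257). Of all 17213 tested transcripts 8.55% passed, 4.03% higher and 4.53% lower. By GENCODE M21 lengths Gpi1-001 came to 76.0%, 63.3% and 64.7% of the gene FPKM in BMP4 samples. In untreated samples it came to 73.2%, 84.4% and 79.2%. The other Gpi1 transcripts were not analysed here, and this length-based measure does not show what they held. The transcript call was lost when any 1 sample other than BMP4 replicate 3 was left out (adjusted p 0.0590 to 0.0888). An antisense long RNA gene shares 741 of the 6452 exonic bases of Gpi1, and the sources used here do not say whether counting used strand.

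Below phosphofructokinase, aldolase cleaves fructose 1,6-bisphosphate and triose phosphate isomerase interconverts the products. Aldoa, the main aldolase of most tissues, had 83.3, 83.9 and 82.2 FPKM with BMP4, against 87.2, 91.7 and 80.1 FPKM without it. The untreated samples lay on both sides of the BMP4 samples, and the log2 fold change of Aldoa was -0.05 with a 95% interval from -0.18 to 0.08. Tpi1 (chromosome 6, 124810586 to 124814296, minus strand) had 126, 128 and 133 FPKM with BMP4, against 170.4, 153 and 148 FPKM without it. Every BMP4 sample lay below every untreated sample, and the log2 fold change of Tpi1 was -0.28 (SE 0.06, limma adjusted p = 0.0146). The Tpi1 call was lost without BMP4 replicate 1 (adjusted p = 0.0612) or BMP4 replicate 2 (0.0565).

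**Figure D3:**
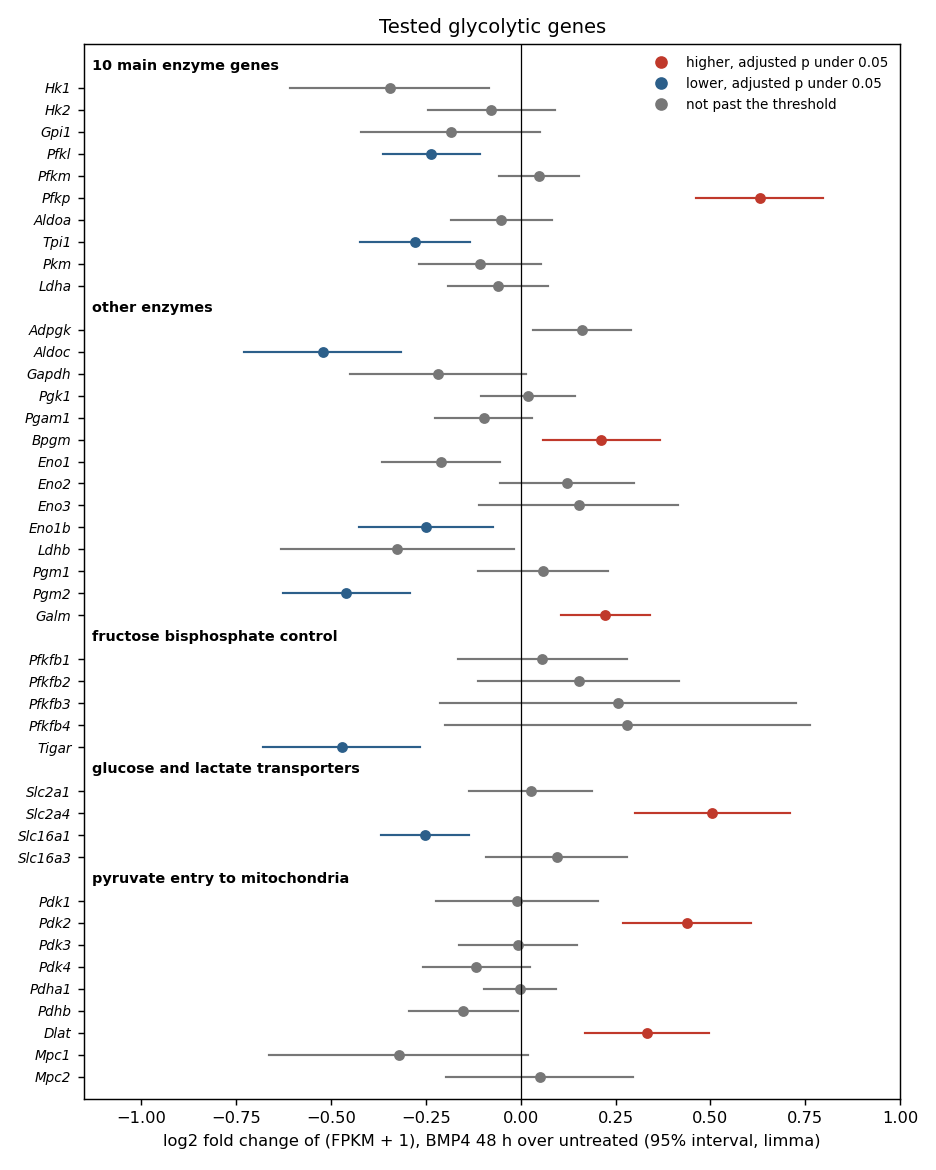
Log2 fold change of FPKM + 1, BMP4 over untreated, with its 95% limma interval, for the 10 enzyme genes and the 32 other tested glycolytic genes; red marks genes higher and blue genes lower at an adjusted p under 0.05. Pfkp lies farthest to the right at 0.63 and Aldoc farthest to the left at -0.52, and most intervals cross 0.

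Pyruvate kinase of most tissues comes from Pkm, whose transcripts take either of a pair of mutually exclusive exons. The upstream exon gives the M1 enzyme of muscle and other differentiated tissues, and the downstream exon gives the M2 enzyme of embryonic and proliferating cells, which is regulated by fructose 1,6-bisphosphate. The exons are shown because they are what tells the transcripts apart: they are 167 bases each and identical at 103 positions, and capitals mark the 64 positions at which they differ. They were read from GENCODE M21 transcripts (GRCm38, plus strand).
Pkm M1 exon chr9:59675029-59675195: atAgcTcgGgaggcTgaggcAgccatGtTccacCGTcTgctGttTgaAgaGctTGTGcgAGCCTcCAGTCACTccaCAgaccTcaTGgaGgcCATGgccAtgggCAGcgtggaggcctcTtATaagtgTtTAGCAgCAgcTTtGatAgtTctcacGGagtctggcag
Pkm M2 exon chr9:59675568-59675734: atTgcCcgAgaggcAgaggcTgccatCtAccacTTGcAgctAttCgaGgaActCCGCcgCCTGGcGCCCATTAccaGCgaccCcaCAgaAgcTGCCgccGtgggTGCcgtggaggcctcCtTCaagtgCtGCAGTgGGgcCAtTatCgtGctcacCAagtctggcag
The deposited M1-type transcript, Pkm-202, is of an earlier version than the M21 transcript from which its exon was read.

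Pkm as a gene (chromosome 9, 59656368 to 59679375) had 577, 577 and 599.7 FPKM with BMP4, against 683, 629 and 582 FPKM without it. Untreated replicate 3 lay within the range of the BMP4 samples, and the log2 fold change of Pkm was -0.11 with a 95% interval from -0.27 to 0.05 (limma adjusted p = 0.286). The M2-type transcript, Pkm-201, had 458, 474 and 496 FPKM with BMP4, against 559.9, 522 and 472 FPKM without it. The M1-type transcript, Pkm-202, had 159, 142 and 145 FPKM with BMP4, against 170.3, 150.2 and 149.5 FPKM without it. Neither transcript passed (limma adjusted p = 0.412 for Pkm-201 and 0.630 for Pkm-202), and for both the groups overlapped.

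The M1 type made up 25.8%, 23.1% and 22.7% of the FPKM of these 2 transcripts in BMP4 samples, against 23.3%, 22.4% and 24.1% in untreated samples. The M2 type was thus about 3 times as abundant as the M1 type in every sample, at 3.20 ± 0.289 times in BMP4 samples and 3.31 ± 0.159 times in untreated samples (SD, n = 3 each). The difference in M1-type share was 0.62 percentage points (two-sided exact permutation p = 0.7, adjusted p = 0.7 over the 7 shares), and it turned to -0.36 without BMP4 replicate 1. By GENCODE M21 lengths these 2 transcripts, of 11 annotated, came to 49.8% to 50.1% of the Pkm gene FPKM in the 6 samples. That measure depends on M21 exon lengths, which may not be those behind the deposited values, and it reached 124% for Aldoa. It therefore does not show that other Pkm transcripts, which were not analysed here, held the rest. In limma's diffSplice, which tests whether transcripts of a gene change unequally, Pkm had an adjusted p of 0.881. None of the 6 enzyme genes with at least 2 tested transcripts passed it, or had an unadjusted p under 0.05, against 1.94% of 3871 genes that passed.

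**Figure D4:**
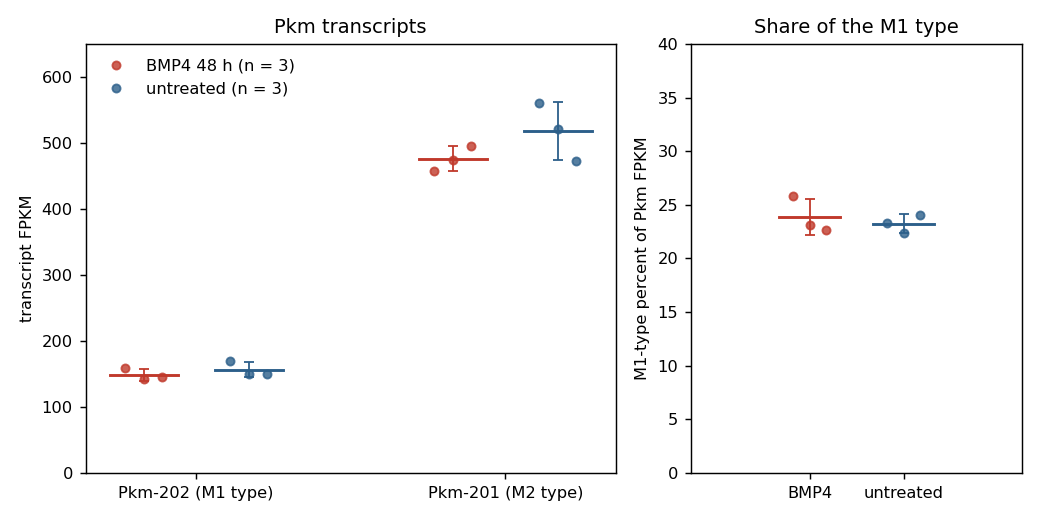
FPKM of the M1-type and M2-type Pkm transcripts (left panel) and the M1-type percent of their sum (right panel), with BMP4 samples left and untreated samples right; points are samples, lines means and bars the SD (n = 3 each). The M2 type lies about 3 times above the M1 type in both groups, and the share of the M1 type is 22.7% to 25.8% with BMP4 and 22.4% to 24.1% without.

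Genes of proteins known to steer the choice of Pkm exon were read beside it at the RNA level. Of the 8 tested, 2 were higher and none lower, near the 27.9% of all tested genes that passed. Ptbp1, which represses the M1 exon, had 24.4, 25.6 and 25.9 FPKM with BMP4, against 30.3, 29.4 and 26.9 FPKM without it. The groups were clear of each other, but the log2 fold change of -0.19 did not pass (limma adjusted p = 0.0509; 0.0238 to 0.164 over the alternatives). Its paralogs Ptbp2 and Ptbp3 rose, with log2 fold changes of 0.46 (SE 0.11, limma adjusted p = 0.0231) and 0.35 (SE 0.08, adjusted p = 0.0141). The call of Ptbp2 was lost without BMP4 replicate 1 or 2 or untreated replicate 1 or 2 (adjusted p 0.0615 to 0.0817), and that of Ptbp3 without BMP4 replicate 1 (0.0568) or 2 (0.0524). Hnrnpa1 and Hnrnpa2b1, which also act against the M1 exon, and Srsf3, which favours the M2 exon, had log2 fold changes of 0.0059, -0.02 and -0.0059, and the sign of each turned in some alternatives. Rbm4 and Nek2 did not pass either, at 0.18 and 0.11.

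Ldha encodes the lactate dehydrogenase subunit that favours lactate formation. It had 113, 112 and 116 FPKM with BMP4, against 126, 119 and 111 FPKM without it, and the groups overlapped. Its log2 fold change of -0.06 had a 95% interval from -0.19 to 0.07 (limma adjusted p = 0.465). Ldha nevertheless stood apart at the transcript level, where the listed transcript that held most of its FPKM differed between samples of the same group. Ldha-201 held 75.9% of listed Ldha FPKM in BMP4 replicate 1, Ldha-002 held 80.2% in BMP4 replicate 2, and Ldha-011 held 83.9% in BMP4 replicate 3. In untreated samples Ldha-002 held 77.2% in replicate 1 and 78.7% in replicate 3, and Ldha-201 held 70.3% in replicate 2.

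Together those 3 Ldha transcripts summed to 172, 173 and 191 FPKM in BMP4 samples and 197, 178 and 170.5 FPKM in untreated samples, so their sum varied far less than its parts. They share 1457 exonic bases, which are 80.3% of Ldha-201, 82.5% of Ldha-002 and 94.9% of Ldha-011, and none passed in limma (adjusted p 0.482 to 0.720). Hk1-013 showed the same kind of entry, with 16.7 FPKM in untreated replicate 2 and a listed value of 0 in the other 5 samples. Pfkp-005 was at 2.40, 0.0412 and 0.295 FPKM with BMP4, against 0.0963, 2.26 and 2.28 FPKM without it. Of the 24 transcripts of the 10 genes that were tested, Pfkp-001 was higher and Gpi1-001 lower. Among all tested transcripts 8.55% passed, so this count lies near the background. Pfkl-001 and Tpi1-001 were lower in all BMP4 samples but did not pass (limma adjusted p = 0.0600 and 0.0520). The Pfkp-001 call (log2 fold change 0.62, limma adjusted p = 0.0463) was lost without any 1 of the 6 samples (adjusted p 0.0665 to 0.157).

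**Figure D5:**
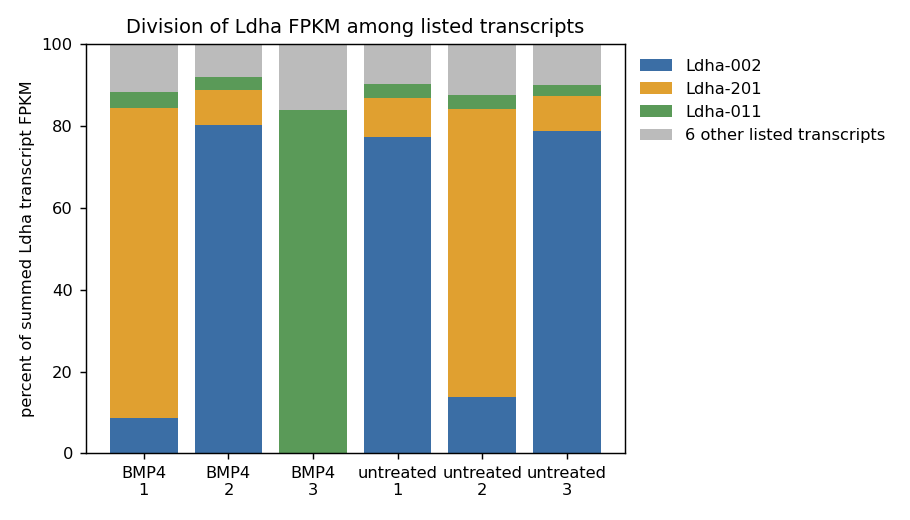
Percent of the summed FPKM of the 9 listed Ldha transcripts held by Ldha-002, Ldha-201, Ldha-011 and the others, with a stacked bar per sample, BMP4 samples left and untreated samples right. A single transcript holds 70.3% to 83.9% in each sample, but which it is differs within both groups.

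The rest of the pathway was read from a list of 43 further genes, of which 34 were listed, 2 lay below the mean of 1 FPKM and 32 were tested. With BMP4, 5 of the 32 were higher and 5 were lower, 10 in all, near the 27.9% of all tested genes that passed. Their median log2 fold change was 0.02. In 14 of the 32, and in 3 of the 10 main enzyme genes, the groups did not overlap, as in 45.5% of all tested genes.

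Among isozymes of the same steps, Aldoc, the aldolase best known from brain, had 3.59, 3.22 and 3.46 FPKM with BMP4, against 5.44, 5.96 and 4.71 FPKM without it. It fell by 0.52 on the log2 scale (SE 0.09, limma adjusted p = 0.00478), past the threshold under every alternative for which it was tested. Aldoc thereby held 3.95% ± 0.228 of the FPKM of Aldoa and Aldoc in BMP4 samples and 5.84% ± 0.278 in untreated samples (SD, n = 3 each), without overlap (exact permutation p = 0.1, the smallest possible). Ldhb, whose subunit favours pyruvate formation, held 1.95% ± 0.464 of the FPKM of Ldha and Ldhb in BMP4 samples and 2.51% ± 0.145 in untreated samples, and its log2 fold change of -0.32 did not pass (limma adjusted p = 0.110). Without BMP4 replicate 3 the Ldhb value was -0.45 and passed (adjusted p = 0.0309), and without BMP4 replicate 2 it was -0.18. Adpgk, an ADP-dependent glucokinase, had a log2 fold change of 0.16 (limma adjusted p = 0.0679), which passed with FPKM rescaled to equal sums (0.0196) or by trimmed means (0.0468), or without untreated replicate 1 (0.0213).

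From triose phosphate to phosphoenolpyruvate, only Eno1b passed among Gapdh, Pgk1, Pgam1 and the enolase genes, beside 27.9% of all tested genes. Gapdh, Pgk1 and Pgam1 had log2 fold changes of -0.22, 0.02 and -0.10, with limma adjusted p of 0.147, 0.809 and 0.221; Gapdh passed without untreated replicate 3 (0.0499). The enolase gene Eno1 had 69.5, 71.7 and 71.8 FPKM with BMP4, against 90.5, 80.7 and 76.3 FPKM without it, clear of each other but at an adjusted p of 0.0522, which passed with equal sums (0.0368), trimmed-mean scaling (0.0412) or without untreated replicate 3 (0.0272). Its near-identical copy Eno1b fell by 0.25 on the log2 scale (limma adjusted p = 0.0463), a call lost without variance trend (0.0623) and without any 1 sample other than untreated replicate 3 (0.0519 to 0.144). The division of reads between Eno1 and Eno1b is uncertain, and together they had 152 ± 3.72 FPKM in BMP4 samples and 179 ± 17.1 FPKM in untreated samples (SD, n = 3 each). Eno2 and Eno3, the neuronal and muscle enolases, had log2 fold changes of 0.12 and 0.15 and did not pass. Gapdh, at 29.2 FPKM with BMP4 and 34.1 FPKM without, matched 76 annotated pseudogenes at 95% identity over at least 150 bases, Pgk1 and Ldha matched 4 each, and each of the other 9 main enzyme genes matched 0 or 1. Levels of genes with such copies are uncertain where the counting split reads between them. Pgam2 was below the filter, at 0.740, 0.807 and 0.706 FPKM with BMP4, against 0.490, 0.425 and 0.101 FPKM without it.

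Bpgm, Galm and Pgm2, named after their values were seen because they passed, act on side branches. Bpgm (bisphosphoglycerate mutase) and Galm (galactose mutarotase) rose by log2 fold changes of 0.21 and 0.22, and Pgm2 (a phosphoglucomutase) fell by 0.46 on the log2 scale. The Bpgm call (limma adjusted p = 0.0491) was lost without any 1 of the 6 samples (0.0581 to 0.157), and that of Galm (0.0150) without BMP4 replicate 2 (0.0652) or untreated replicate 2 (0.0574).

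Of the genes that set fructose 2,6-bisphosphate, the activator of phosphofructokinase, only Tigar passed, 1 of 5 tested, beside 27.9% of all tested genes. Tigar, a p53-induced phosphatase that degrades this activator, had 1.14, 1.37 and 1.41 FPKM with BMP4, against 2.30, 1.91 and 2.39 FPKM without it, and fell by 0.47 on the log2 scale (limma adjusted p = 0.00728). Pfkfb2, Pfkfb3 and Pfkfb4, which encode bifunctional enzymes that make and remove it, had log2 fold changes of 0.15, 0.26 and 0.28 and did not pass; Pfkfb4 passed without untreated replicate 1 (adjusted p = 0.0465) and Pfkfb2 without untreated replicate 2 (0.0472), while the Pfkfb3 value was 0.0069 without untreated replicate 1. Pfkfb1 did not pass.

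Of 4 tested glucose and lactate transporters 1 was higher and 1 lower, beside 27.9% of all tested genes that passed. Slc2a1 (GLUT1), the main glucose carrier of endothelial cells, had 45.6, 45.7 and 48.5 FPKM with BMP4, against 50.3, 44.5 and 42.5 FPKM without it, and the sign of its log2 fold change of 0.03 turned without BMP4 replicate 3 or untreated replicate 3. Slc2a4 (GLUT4), the insulin-responsive carrier, rose to 2.21, 2.49 and 2.34 FPKM with BMP4, against 1.23, 1.63 and 1.25 FPKM without it (limma adjusted p = 0.00525). Slc2a3 (GLUT3) lay below the filter, at 1.02, 1.07 and 0.748 FPKM with BMP4, against 0.317, 0.326 and 0.389 FPKM without it. With no filter on low values Slc2a3 and Pgam2 were both called higher, for 7 of the list in all. Slc16a1 (MCT1), a lactate carrier, fell to 18.9, 18.3 and 18.3 FPKM with BMP4, against 21.2, 22.8 and 22.6 FPKM without it (limma adjusted p = 0.00888). Slc16a3 (MCT4), which exports lactate, did not pass at 0.09.

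At the entry of pyruvate into mitochondria, Pdk2 and Dlat rose and none of 9 tested genes fell, again a share near the 27.9% of all tested genes that passed. Pdk2, a kinase that inhibits pyruvate dehydrogenase, had 5.72, 6.13 and 6.15 FPKM with BMP4, against 4.16, 4.52 and 3.84 FPKM without it (log2 fold change 0.44, SE 0.07, limma adjusted p = 0.00422). Dlat, a core subunit of that same complex, had a log2 fold change of 0.33 (limma adjusted p = 0.0117), and its call was lost without BMP4 replicate 1 (0.0503). Pdhb and Mpc1 had log2 fold changes of -0.15 and -0.32 and did not pass (Mpc1 was at -0.16 without untreated replicate 2), and the other 5 did not pass either.

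Pfkp had the largest absolute log2 fold change of the 10 genes. The other tested genes whose log2(FPKM + 1) profile, centred on its mean, was nearest to that of Pfkp over the 6 samples were Mical2 and Pawr, with root mean square differences of 0.0349 and 0.0370 on the log2 scale. Pawr, a pro-apoptotic protein that binds WT1, had 16.8, 15.2 and 14.2 FPKM with BMP4, against 9.85, 9.94 and 9.86 FPKM without it. Exons of Pfkp share 748 of 13401 bases with Pitrm1 on the opposite strand, and Pitrm1 had 39.2, 43.2 and 40.2 FPKM with BMP4, against 37.9, 35.7 and 37.5 FPKM without it (log2 fold change 0.14, limma adjusted p = 0.0923). Of the other 9 main enzyme genes, Pfkm shares 18 and Tpi1 shares 34 exonic bases with another listed gene, and Pfkm shares 341 of 3340 and Pkm 767 of 5001 with a same-strand annotated gene not analysed here. The part of these overlaps in the values was not tested.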

How the data were processed

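The authors deposited FPKM, per the file headers, in 1 table of genes and 1 of transcripts. Per the labels' protocols, polyadenylated RNA was made into stranded libraries and read as paired ends. The submitters' processing notes name FastQC, cutadapt, HISAT2 and StringTie; the build is GRCm38, and versions, settings and annotation are not stated there. An emptied line in each table (1 each) was left out. Tests used log2(FPKM + 1) of those features whose mean reached 1 FPKM, with limma 3.58.1 in R 4.3.3 (two-sided, variance trend, no covariate, Benjamini-Hochberg over all tested, threshold 0.05). A fold change on this scale understates that of low genes. Unequal transcript change was tested with diffSplice, and shares with exact permutation tests over samples (scipy 1.17.1). Alternatives were a pseudocount of 0.1, a mean of at least 5 FPKM or no filter, equal sums, trimmed-mean scaling, a replicate block, no variance trend, and leaving out each of the 6 samples. Fits were tested on simulated data.

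The 10 genes and the lists were chosen with earlier results of these data known. Genes were named by a rule: the 10 genes, isozymes of their steps, the enzymes from Gapdh to Eno1, up to 4 per further class by limma p, the Pkm splicing factors, and the 3 genes most like the gene that changed most, of which 1 is not reported here. The shares of Hk2, Aldoc and Ldhb and the division of Ldha transcripts were added after the values were seen. GENCODE M21 (GRCm38) gave exon lengths, exon overlap, the Pkm exons and near-identical copies.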

Additional observations from a re-analysis of the deposited data

How the results depend on the processing

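Of 582 recomputed log2 fold changes of 47 named genes and transcripts, 504 kept their direction and their side of the threshold. Pfkp was higher under all 13 alternatives. With the replicate number as a block, 1 of the 10 enzyme genes was lower (Hk1, in place of Pfkl and Tpi1). Of the other glycolytic genes 3 were then higher and 3 lower. In that fit Bpgm (limma adjusted p = 0.124), Galm (0.0695), Eno1b (0.107), Slc16a1 (0.0510), Ptbp2 (0.0718) and Ptbp3 (0.0549) lost their calls. Deviations of same-numbered samples correlated at -0.149, 0.05 and -0.221, and those of differently numbered samples at -0.102 to 0.216. With 3 samples a group, these values cannot show whether same-numbered samples belong together. Over all genes the block left 994 higher and 1046 lower, against 1487 and 1559, and leaving out BMP4 replicate 1 left 985 and 1051. With a mean of at least 5 FPKM, 3 other glycolytic genes were higher (Slc2a4 was no longer tested and Bpgm was at 0.0505) and 3 lower (Aldoc and Tigar were no longer tested), and 3 transcripts of the 10 enzyme genes were lower. Rescaling to equal sums moved the median log2 fold change of all genes to 0.0349 and turned Hnrnpa2b1 to 0.0254 and Srsf3 to 0.0349. Leaving out 1 sample at a time gave 0 to 3 enzyme genes lower, 3 to 6 other glycolytic genes higher, 0 member transcripts higher and 0 to 1 lower. Over the same 6 fits the log2 fold change ran from -0.0216 to 0.0582 for Pgk1, -0.0234 to 0.0954 for Slc2a1, -0.0154 to 0.0450 for Hnrnpa1, -0.0420 to 0.0325 for Hnrnpa2b1 and -0.0424 to 0.0167 for Srsf3. The M1-type share difference of Pkm ran from -0.355 to 1.21 percentage points. The cause of these changes was not tested. With 3 samples a group and no read counts, a gene that did not pass may still differ between the groups.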
